A study of Chlamydomonas reinhardtii with 45 samples.

Results

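The nuclear genes of the photosystem I antenna, named LHCA1 to LHCA9, were followed through an RNA-seq time course of osmotic stress in Chlamydomonas reinhardtii, a unicellular green alga. They were chosen by gene identifier. Of the 9 identifiers, 6 had a row in the table of 17737 genes: LHCA2 (Cre12.g508750), LHCA4 (Cre10.g452050), LHCA5 (Cre10.g425900), LHCA7 (Cre16.g687900), LHCA8 (Cre06.g272650) and LHCA9 (Cre07.g344950). Each had 1 transcript and passed the filter on low values. LHCA1 (Cre06.g283050), LHCA3 (Cre11.g467573) and LHCA6 (Cre06.g278213) were not analysed here. Wild-type cells of strain CC-4533 (cMJ030) were grown in acetate medium under continuous low light and received 100 mM NaCl or 300 mM mannitol. Each osmolyte was sampled at 15, 30 and 60 min, then at 4, 6 and 24 h, with 3 libraries in each of these 12 treated groups. The untreated groups were control 24 h with 4 libraries and control 0 h with 5. All groups share strain, medium and light, and the time points of a treatment were drawn from the same flask, so neighbouring times are not independent cultures.

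LHCA proteins bind chlorophyll a, chlorophyll b and carotenoids and pass absorbed light energy to the core of photosystem I. In Chlamydomonas they form a crescent of an inner and an outer belt on one face of the core, in which LHCA7 and LHCA8 belong to the inner belt and LHCA4 and LHCA5 to the outer belt. LHCA2 and LHCA9 sit apart from the crescent as a pair on the opposite face. The genes are encoded in the nucleus, the proteins are imported into the chloroplast, and transcripts of light-harvesting genes are among the most abundant in the algal cell. The time course asks how the transcripts of each antenna position moved after a salt and after a non-ionic osmolyte.

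Levels are given in TPM, the share of a library's transcripts that a gene takes after correction for length. Since the TPM of any library add up to 1000000, its read depth is unknown and the error given is the spread between libraries. A TPM is a share of the RNA, so fewer LHCA transcripts and more of other transcripts cannot be told apart. A single transcript, g15293.t1, took 5.33% to 52.3% of the TPM of a library (median 31.6%). Across all transcripts tested, the median log2 fold change against control 0 h lay between -0.63 and -0.06 in the treated groups and control 24 h. The comparisons are therefore also given after median-ratio scaling, which divides each library by the median ratio of 10428 transcripts to their geometric means. One library of each group, 14 in all, carries a library number of 49 or higher in the deposited table. These are replicate 3 of the treated groups and replicate 5 of the controls, are called the second library series here, and the other 31 libraries the first. The labels do not say what the numbers stand for.

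LHCA7 was the most abundant of the 6 transcripts in 45 of 45 libraries. It took 25.4% to 32.1% of their summed TPM. In control 0 h, LHCA7 was at 3639, 2638, 3978, 2532 and 2874 TPM, or 3132 ± 641 TPM (mean ± SD, n = 5). LHCA8, its partner in the inner belt, averaged 1706 ± 429.9 TPM. The outer-belt genes LHCA4 and LHCA5 averaged 1687 ± 334 and 1526 ± 346 TPM. LHCA2 averaged 1655 ± 541 TPM and LHCA9 1393 ± 323 TPM. Only the step from LHCA7 to LHCA8, 1426 TPM, was larger than the SD of both neighbours, and the means of the other 5 genes lay within the SD of their neighbours. Within the libraries some of these genes kept their order. LHCA4 was above LHCA5 and LHCA5 above LHCA9 in 5 of 5 control 0 h libraries, with log2 ratios of 0.06 to 0.22 and of 0.08 to 0.26. The log2 ratios of LHCA2 to LHCA4, LHCA5, LHCA8 and LHCA9 took both signs. The 6 genes together summed to 4394 ± 879 TPM after 60 min of mannitol and to 5244 ± 1459 TPM after 60 min of NaCl (SD, n = 3 each), against 11099 ± 2438 TPM in control 0 h (SD, n = 5). That mannitol sum was the lowest mean of the 14 groups on deposited TPM, whereas after scaling the lowest was that of 4 h of mannitol, at 5132 ± 845, beside 5414 ± 1263 at 60 min (SD, n = 3 each). Each of the 6 genes had its lowest mean TPM after 60 min of mannitol, but on scaled values this held for LHCA5 and LHCA8, and LHCA2, LHCA4, LHCA7 and LHCA9 were lowest at 4 h of mannitol. On deposited TPM the range from the lowest to the highest group mean was between 2.21-fold for LHCA2 and 3.50-fold for LHCA5.

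**Figure D1:**
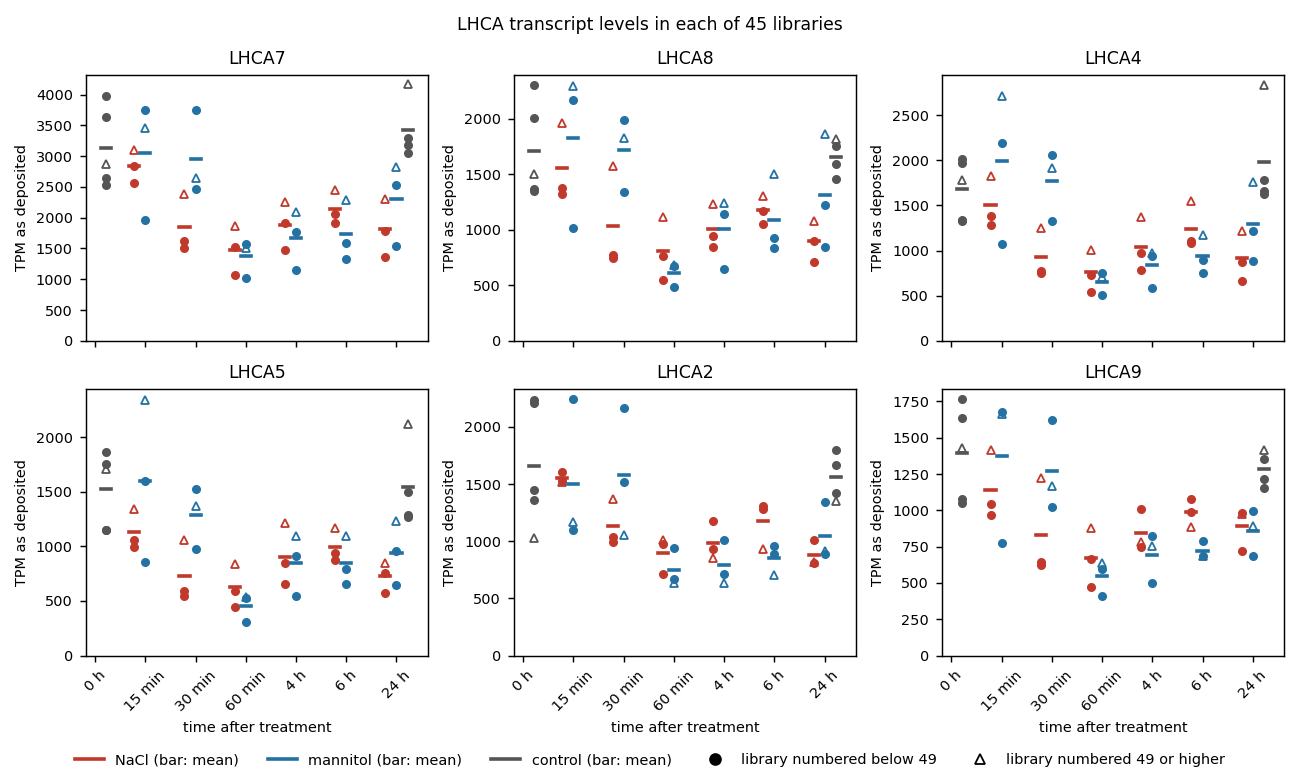
TPM of each LHCA gene (1 panel a gene, y axis from 0) against time after treatment. Red is NaCl, blue is mannitol and grey the untreated controls at 0 and 24 h, a point is a library, a bar is the group mean, and open triangles are libraries numbered 49 or higher. In all 6 panels the lowest group mean is that of 60 min of mannitol, which after scaling held for LHCA5 and LHCA8 but not for the other 4 genes.

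The makeup of the antenna transcripts followed the library series. LHCA2 took 8.56% to 15.4% of the summed LHCA TPM in the second series (median 10.8%, 14 libraries), against 13.8% to 19.8% in the first (median 16.6%, 31 libraries). In all 14 groups the second-series library had the lowest LHCA2 share. LHCA2 was at rank 5 or 6 of the 6 genes in 11 of the 14 second-series libraries and in 0 of the 31 first-series libraries, where it was at rank 2 in 26. LHCA4 went the other way, with a median share of 17.1% in the second series against 14.8% in the first, and the second-series library had the highest LHCA4 share in 13 of 14 groups. LHCA5 and LHCA8 had it in 13 and 12 groups. With group and series in 1 limma fit over the 45 libraries after median-ratio scaling, LHCA5 was higher in the second series by a log2 difference of 0.64 ± 0.04 (SE, adjusted p = 3.40e-16). LHCA4 differed by 0.62 ± 0.04 (SE, adjusted p = 2.68e-15) and LHCA8 by 0.56 ± 0.05 (SE, adjusted p = 1.15e-12). LHCA7 and LHCA9 differed by 0.44 ± 0.05 (SE, adjusted p = 1.32e-10) and 0.32 ± 0.06 (SE, adjusted p = 7.38e-06). LHCA2 had a difference of -0.19 ± 0.05 (SE, adjusted p = 0.00203), the only negative one of the 6, and also the only negative one on deposited TPM, at -0.28 ± 0.10 (SE, adjusted p = 0.0132). No member passed a log2 difference of 1, which 1.61% of all transcripts exceeded upward and 1.65% downward with an adjusted p under 0.01. The share of all transcripts with such a p at any size of difference is not given here. These p-values therefore do not show that the series difference is particular to the LHCA genes. This fit was chosen after seeing the data. It treats the 45 libraries as independent, although the time points of a treatment were drawn from the same flask. Its SE and p-values therefore measure the spread between libraries and not between cultures, and can be too small. Since each group holds exactly 1 second-series library, the series is part of the spread within every group, and a fit with series as a term is given beside the main fit wherever an LHCA gene passed an adjusted p of 0.01 in it. In the other comparisons with a control or between the osmolytes or times, 0 of 6 passed in that limma fit, and 0 to 2 had an unadjusted p under 0.05, except 6 in NaCl against mannitol at 6 h. In that 6 h comparison 4497 of the 13651 transcripts tested also had such a p.

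**Figure D2:**
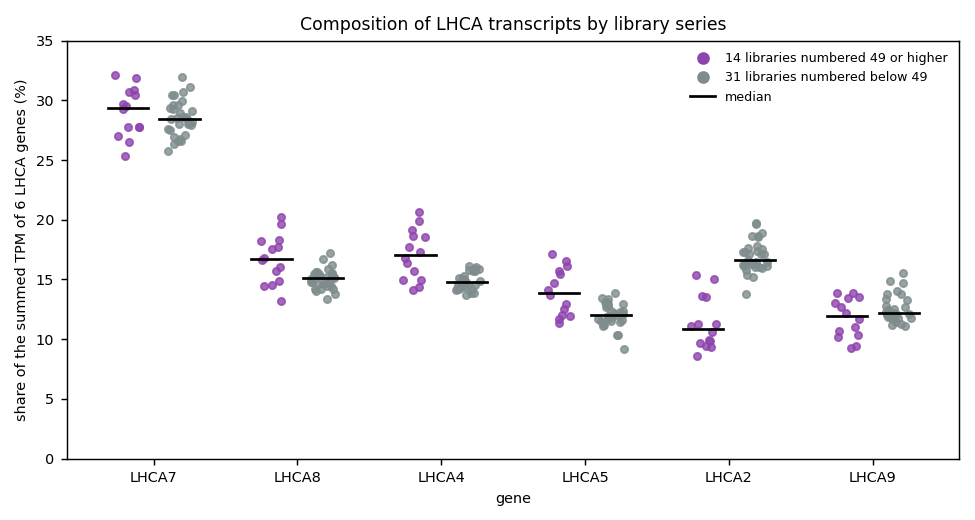
Share of each gene in the summed TPM of the 6 LHCA genes (%, y axis from 0) in the 14 libraries numbered 49 or higher (purple) and the 31 numbered below 49 (grey). Each point is a library and each black bar a median. The LHCA2 median is 10.8% in the purple libraries and 16.6% in the grey ones, while LHCA4, LHCA5, LHCA7 and LHCA8 have the higher median in purple.

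After 60 min of mannitol, all 6 LHCA transcripts fell relative to control 0 h, each by more than 2-fold. In the inner belt, LHCA8 was at 483, 675 and 684 TPM after 60 min of mannitol, against 2307, 1363, 2008, 1347 and 1505 TPM in control 0 h. LHCA7 was at 1019, 1577 and 1514 TPM, against 3639, 2638, 3978, 2532 and 2874 TPM. For both genes every mannitol library lay below every control 0 h library. The log2 fold changes were -1.46 ± 0.25 (SE, adjusted p = 6.61e-05) for LHCA8 and -1.20 ± 0.25 (SE, adjusted p = 0.00035) for LHCA7 (limma, Benjamini-Hochberg). In the outer belt, LHCA5 was at 311, 524 and 536 TPM, against 1864, 1153, 1753, 1151 and 1711 TPM in control 0 h, and had the largest change of the 6 at -1.75 ± 0.26 (SE, adjusted p = 1.38e-05). LHCA4 was at 503, 752 and 707 TPM, against 2013, 1327, 1970.3, 1341 and 1784 TPM, a log2 fold change of -1.36 ± 0.25 (SE, adjusted p = 0.000108). The outer-belt groups did not overlap either. For the pair on the opposite face, LHCA9 was at 412, 594 and 640.2 TPM, against 1766, 1077, 1637, 1052 and 1432 TPM in control 0 h, and LHCA2 at 671, 942 and 637 TPM, against 2238, 1357, 2206, 1448 and 1026 TPM. Their log2 fold changes were -1.34 ± 0.26 (SE, adjusted p = 0.000186) and -1.10 ± 0.27 (SE, adjusted p = 0.00184), again without overlap. All 6 genes lay below the control in every mannitol library, as did 34.9% of all transcripts, and after scaling 5 did, beside 21%. A call needed a log2 fold change beyond 1 together with an adjusted p below 0.01. By this rule 6 of 6 LHCA transcripts were called lower, beside 27.7% of all transcripts tested. The median log2 fold change was -1.35 over the 6 and -0.55 over all transcripts.

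Relative to the shift of all transcripts, the decrease at 60 min of mannitol was smaller. After median-ratio scaling the median log2 fold change of the 6 was -0.66, all 6 remained negative, and 1 was called, LHCA5 at -1.06 ± 0.24 (SE, adjusted p = 0.00341), beside 9.6% of all transcripts. With series as a term on the scaled values, LHCA5 was at -1.15 ± 0.12 (SE, adjusted p = 3.88e-06), LHCA8 at -0.81 ± 0.12 (SE, adjusted p = 6.19e-05) and LHCA4 at -0.74 ± 0.10 (SE, adjusted p = 3.84e-05). LHCA9 and LHCA7 were at -0.72 ± 0.11 (SE, adjusted p = 0.000105) and -0.56 ± 0.11 (SE, adjusted p = 0.000643), and LHCA2 at -0.38 ± 0.11 (SE, adjusted p = 0.0125). In this fit 5 of the 6 passed an adjusted p of 0.01 downward at any fold change, beside 19.2% of all transcripts. Libraries of the first series alone gave 6 calls on the deposited TPM. Leaving out mannitol 60 min replicate 1 gave 4 calls, and leaving out mannitol 60 min replicate 3 or control 0 h replicate 1 or 3 gave 5.

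The earlier times of mannitol and the step between 30 and 60 min were tested next. At 15 and 30 min of mannitol, 0 of 6 LHCA transcripts were called by limma in either direction and 0 had an unadjusted p under 0.05, with medians of -0.04 and -0.08. After scaling the medians were positive, at 0.10 and 0.02, again with 0 at an unadjusted p under 0.05. With g15293.t1 and g15294.t1 taken out of the TPM, however, the median at 30 min was -0.32, beside -0.26 over all transcripts. There 6 of 6 were negative and 3 had an unadjusted p under 0.05, as did 2681 of all transcripts. Of all transcripts, 0.0147% and 0.19% were called lower and 0.0659% and 0.711% higher at these times. LHCA5 was at 859, 1603 and 2338 TPM after 15 min and at 1527, 976 and 1369 TPM after 30 min, both overlapping the 1864, 1153, 1753, 1151 and 1711 TPM of control 0 h. Set directly against 30 min, all 6 were called lower at 60 min, beside 18.7% of all transcripts. LHCA5 changed most at -1.51 ± 0.31 (SE, adjusted p = 2.56e-05), followed by LHCA8 at -1.48 ± 0.31 (SE, adjusted p = 2.97e-05) and LHCA4 at -1.43 ± 0.31 (SE, adjusted p = 5.65e-05). LHCA2 changed least at -1.03 ± 0.31 (SE, adjusted p = 0.00388). The count fell to 3 without mannitol 60 min replicate 1 and to 0 without mannitol 30 min replicate 1. After scaling 0 were called by limma, beside 2.91% of all transcripts called lower, at a median of -0.73 against -0.10 for all transcripts. There 3 of 6 had an unadjusted p under 0.05, as did 5862 of the 13651 transcripts tested. On scaled values with series as a term, 4 of 6 passed the p threshold downward, beside 7.33% of all transcripts.

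At 4 and 6 h of mannitol the log2 fold changes of all 6 genes were still negative, but none met the call rule on the deposited TPM. LHCA4 was at 588, 938 and 978 TPM after 4 h, against 2013, 1327, 1970.3, 1341 and 1784 TPM in control 0 h, without overlap. LHCA9 was at 502, 826 and 751 TPM, against 1766, 1077, 1637, 1052 and 1432 TPM, also without overlap. At 4 h all 6 genes lay below control 0 h without overlap, as did 9.54% of all transcripts, and after scaling 5 did, beside 9%. Over the 6 genes the log2 fold changes at 4 h ran between -1.03 and -0.78, and their median was -0.97, beside -0.19 over all transcripts. At 6 h they ran between -0.92 and -0.66, and their median was -0.86, beside -0.21. At each of these times 0 of 6 were called by limma. An unadjusted p under 0.05 was found for 6 of 6 at each, beside 2343 and 2850 of the 13651 transcripts tested. Of all transcripts, 1.97% were called lower at 4 h and 1.3% at 6 h. After scaling the medians were -0.74 at 4 h and -0.60 at 6 h. With series as a term on scaled values, LHCA4 was at -0.86 ± 0.08 (SE, adjusted p = 1.86e-05) and LHCA8, the least changed, at -0.60 ± 0.10 (SE, adjusted p = 0.00202) after 4 h. In that fit 6 of 6 at 4 h and 5 of 6 at 6 h passed the p threshold downward, beside 4.15% and 3.88% of all transcripts. LHCA8 at 6 h was the exception at -0.46 ± 0.12 (SE, adjusted p = 0.0193). Leaving out control 0 h replicate 5 gave 1 call at 4 h and 1 at 6 h. Set against 60 min, 0 of 6 were called at 4 h of mannitol in either direction. Of all transcripts, 15.7% were called higher and 9.64% lower. By limma 1 of 6 had an unadjusted p under 0.05, as did 6543 of the 13651 transcripts tested. The scaled log2 differences of the 6 ran between -0.39 and 0.42, and 4 were negative.

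Under NaCl, 5 of the 6 genes also had their lowest mean TPM at 60 min, the exception being LHCA2, whose mean was 899 ± 160.4 TPM at 60 min and 877 ± 114 TPM at 24 h (SD, n = 3 each). LHCA5 was at 444, 587 and 839.9 TPM after 60 min of NaCl, against 1864, 1153, 1753, 1151 and 1711 TPM in control 0 h, and fell with a log2 fold change of -1.31 ± 0.28 (SE, adjusted p = 0.0004). LHCA4 was at 545, 728 and 1005 TPM, against 2013, 1327, 1970.3, 1341 and 1784 TPM, at -1.17 ± 0.27 (SE, adjusted p = 0.000872). LHCA8 was at 548, 759.7 and 1114 TPM, against 2307, 1363, 2008, 1347 and 1505 TPM, at -1.10 ± 0.28 (SE, adjusted p = 0.00211). For these 3 genes, as for the other 3, every NaCl library lay below every control 0 h library, as was so for 41.4% of all transcripts. After scaling this held for 1 of 6, beside 27.5%. LHCA7 and LHCA9 fell with -1.09 ± 0.27 (SE, adjusted p = 0.00145) and -1.06 ± 0.27 (SE, adjusted p = 0.00235). LHCA2 was at 715, 976 and 1007 TPM, against 2238, 1357, 2206, 1448 and 1026 TPM, and was not called at -0.83 ± 0.28 (SE, adjusted p = 0.0162). In total 5 of 6 were called lower, beside 30.9% of all transcripts. The median was -1.10 over the 6 and -0.57 over all transcripts. Without NaCl 60 min replicate 1 the count was 1, and it was 3 without NaCl 60 min replicate 2 or control 0 h replicate 1.

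After median-ratio scaling the median at 60 min of NaCl was -0.36 and 0 of 6 were called by limma, beside 15.3% of all transcripts called lower. There 3 of 6 had an unadjusted p under 0.05, as did 8312 of the 13651 transcripts tested. With series as a term on scaled values, LHCA5 was at -0.65 ± 0.09 (SE, adjusted p = 5.64e-05), LHCA4 at -0.50 ± 0.09 (SE, adjusted p = 0.000272) and LHCA2 at -0.07 ± 0.12 (SE, adjusted p = 0.61). In that fit 5 of 6, all but LHCA2, passed the p threshold downward, beside 26% of all transcripts. At 30 min of NaCl, LHCA5 alone was called on the deposited TPM, at 546, 592 and 1055 TPM against 1864, 1153, 1753, 1151 and 1711 TPM and -1.09 ± 0.29 (SE, adjusted p = 0.00324), beside 27.4% of all transcripts called lower. That call was lost without NaCl 30 min replicate 1 or 2 or control 0 h replicate 1 or 3, and without NaCl 30 min replicate 3 the count was 4. The scaled median at 30 min was -0.01, with LHCA2 at 0.28 and LHCA5 at -0.32, neither called, beside 6.29% of all transcripts called lower. With series as a term LHCA5 was at -0.40 ± 0.09 (SE, adjusted p = 0.00322) on scaled values, 1 of 6 to pass the p threshold downward, beside 15.2% of all transcripts. At 15 min 0 of 6 were called by limma, beside 1.16% of all transcripts called lower, and 0 had an unadjusted p under 0.05. The medians were -0.14 as deposited and 0.22 after scaling, so the sign at 15 min depended on the scaling.

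At 4 and 6 h of NaCl, 0 of 6 LHCA transcripts were called by limma. An unadjusted p under 0.05 was found for 6 and 3 of them, beside 5508 and 5000 of the 13651 transcripts tested. Of all transcripts, 11.3% and 9.19% were called lower. LHCA7 was at 1916, 1473 and 2260.2 TPM after 4 h and at 1918, 2064 and 2446 TPM after 6 h, against 3639, 2638, 3978, 2532 and 2874 TPM in control 0 h. The 4 h and 6 h libraries all lay below the lowest control value of LHCA7, as was so for 23.6% and 22.2% of all transcripts. In all, 3 of 6 LHCA genes lay below control 0 h without overlap at 4 h and 2 of 6 at 6 h. After scaling 1 and 0 did, beside 17% and 15.9% of all transcripts, and LHCA7 overlapped control 0 h at both times. The median log2 fold change was -0.72 at 4 h and -0.49 at 6 h, and -0.30 and -0.10 after scaling. On scaled values with series as a term, 3 of 6 passed the p threshold downward at 4 h (LHCA4, LHCA5 and LHCA7), beside 13.7% of all transcripts, and 0 of 6 at 6 h, beside 12.8%. No LHCA transcript was called between 30 and 60 min or between 60 min and 4 h of NaCl, where the medians were -0.30 and 0.36 and 7.63% of all transcripts were called lower and 8.81% higher. By limma 0 of 6 had an unadjusted p under 0.05 in either step. After scaling the medians were -0.35 and 0.05. On scaled values with series as a term, 4 of 6 passed the p threshold downward between 30 and 60 min of NaCl, beside 15.7% of all transcripts, and none reached a log2 fold change of -1.

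At 24 h the treated cells can be set against untreated cells of the same age. LHCA4 was at 876, 665 and 1221 TPM in NaCl 24 h, against 1631, 1657, 1786 and 2834 TPM in control 24 h, and fell with a log2 fold change of -1.11 ± 0.27 (SE, adjusted p = 0.0089). LHCA5 was at 757, 574 and 848 TPM, against 1270.4, 1291, 1494 and 2121 TPM, and fell with -1.07 ± 0.25 (SE, adjusted p = 0.00616). For all 6 genes the NaCl 24 h libraries lay below every control 24 h library, as was so for 18.2% of all transcripts, and after scaling this held for 5, beside 17.2%. By the call rule 2 of 6 were lower, beside 5.97% of all transcripts, and the medians were -0.92 over the 6 and -0.10 over all transcripts. The count was 0 without NaCl 24 h replicate 1 or 2 and without any 1 of the 4 control 24 h libraries, and 4 without NaCl 24 h replicate 3. With the replicate number as a block it was 0. In mannitol 24 h, LHCA5 was at 955, 643 and 1232 TPM and LHCA7 at 2540.0, 1546 and 2819.7 TPM, against 1270.4, 1291, 1494 and 2121 TPM and 3289, 3045, 3189 and 4170.0 TPM in control 24 h. There 0 of 6 were called by limma, and 4 had an unadjusted p under 0.05, as did 2405 of the 13651 transcripts tested. The median was -0.60 against 0.08 for all transcripts, of which 0.168% were called lower.

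After scaling these 24 h medians were -0.76 for NaCl and -0.70 for mannitol, with 0 of 6 called by limma in each. In each, 5 of 6 had an unadjusted p under 0.05, beside 5113 and 2929 of the 13651 transcripts tested. Of all transcripts, 4.75% and 0.3% were called lower. With quantile normalization the medians were smaller, at -0.39 for NaCl and -0.17 for mannitol, beside -0.06 and -0.02 over all transcripts. There 5 of 6 were negative in each, and 3 and 0 had an unadjusted p under 0.05 by limma, beside 5225 and 2763 of all transcripts. Without g15293.t1 and g15294.t1 the medians were -0.69 and -0.30, beside 0.06 and 0.32. There 5 and 0 of 6 were at that p, beside 4413 and 3667 of all transcripts. On scaled values with series as a term, NaCl 24 h differed from control 24 h by -1.03 ± 0.12 (SE, adjusted p = 3.90e-05) for LHCA4, -0.98 ± 0.11 (SE, adjusted p = 4.63e-05) for LHCA5 and -0.41 ± 0.12 (SE, adjusted p = 0.0166) for LHCA9. Mannitol 24 h differed by -0.88 ± 0.09 (SE, adjusted p = 7.37e-05) for LHCA5 and -0.54 ± 0.13 (SE, adjusted p = 0.0105) for LHCA8. In each of these 2 comparisons 5 of 6 passed the p threshold downward, beside 13.5% of all transcripts in NaCl and 7% in mannitol. Whether the untreated cells differed between the times depended on the scaling. With quantile normalization the median of control 24 h against control 0 h was -0.02. Without g15293.t1 and g15294.t1 it was -0.01. In each, 3 of 6 were negative and 0 had an unadjusted p under 0.05 by limma. Control 24 h against control 0 h had a scaled median of 0.40, with 6 of 6 positive, while the median on deposited TPM was 0.00. By limma 0 of 6 were called on either scale. An unadjusted p under 0.05 was found for 5 and 0 of them, beside 1983 and 2878 of the 13651 transcripts tested. Of all transcripts, 0.168% were called higher after scaling and 0.132% as deposited. On scaled values with series as a term, LHCA4 was higher in control 24 h by 0.58 ± 0.08 (SE, adjusted p = 0.000535), LHCA7 by 0.53 ± 0.08 (SE, adjusted p = 0.000843) and LHCA5 by 0.39 ± 0.08 (SE, adjusted p = 0.008). These 3 of 6 passed the p threshold upward, beside 2.26% of all transcripts, and none reached a log2 fold change of 1. Against control 0 h, NaCl 24 h gave 1 call, LHCA5 at -1.06 ± 0.26 (SE, adjusted p = 0.00387), beside 12.2% of all transcripts, and mannitol 24 h gave 0, beside 0.462%. In mannitol 24 h 2 of 6 had an unadjusted p under 0.05 by limma, as did 2373 of the 13651 transcripts tested. After scaling these medians were -0.32 for NaCl and -0.24 for mannitol. With series as a term, LHCA5 was at -0.58 ± 0.09 (SE, adjusted p = 0.000244) and LHCA4 at -0.43 ± 0.10 (SE, adjusted p = 0.00519) in NaCl 24 h, 2 of 6 to pass the p threshold downward, beside 11.6% of all transcripts. In mannitol 24 h 1 of 6 did, LHCA5 at -0.49 ± 0.08 (SE, adjusted p = 0.00244), beside 2.13%. The NaCl call was lost without NaCl 24 h replicate 1 or 2 or control 0 h replicate 1 or 3. The count was 3 without NaCl 24 h replicate 3 and 2 without control 0 h replicate 5.

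**Figure D3:**
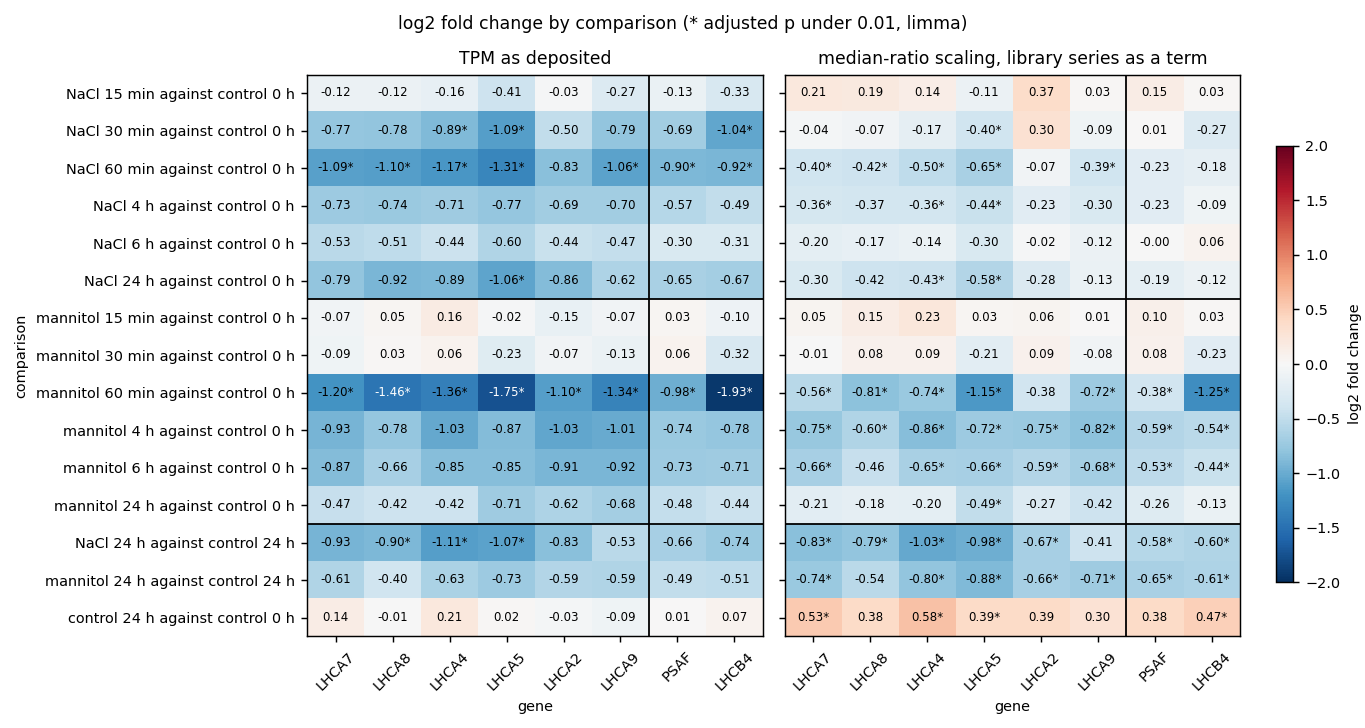
log2 fold change of the 6 LHCA genes and of PSAF and LHCB4 (x axis) in 15 comparisons with a control (y axis), on TPM as deposited (left) and on median-ratio scaled values with library series as a term (right). Blue is lower and red higher in the group named first, and an asterisk marks an adjusted p under 0.01. The deepest LHCA value in both panels is LHCA5 at 60 min of mannitol, at -1.75 on the left and -1.15 on the right.

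NaCl and mannitol were compared directly at each time, without shared controls. By limma on deposited TPM, 0 of 6 LHCA transcripts were called at any of the 6 times. An unadjusted p under 0.05 was reached there by 3 at 30 min, beside 7554 of the 13651 transcripts tested, and by 0 at the other times. Apart from 30 min, the share of all transcripts called lower in NaCl was 0.227% (15 min), 14.7% (60 min), 0.505% (4 h), 0.249% (6 h) and 3.44% (24 h). At 60 min, 4 h and 6 h, where all 6 LHCA differences were positive, 7.52%, 0.542% and 0.557% were called higher in NaCl. At 30 min the median log2 difference was -0.75, beside -0.58 over all transcripts, of which 21.5% were called lower in NaCl. LHCA5 was at 546, 592 and 1055 TPM in NaCl and 1527, 976 and 1369 TPM in mannitol at that time, without reaching a call at -0.86 ± 0.35 (SE, adjusted p = 0.0315). Without NaCl 30 min replicate 3 the count was 3. After scaling the 30 min median was -0.07, and without g15293.t1 and g15294.t1 it was -0.20, with 0 of 6 at an unadjusted p under 0.05 in each. At 60 min the LHCA5 levels were 444, 587 and 839.9 TPM in NaCl and 311, 524 and 536 TPM in mannitol, an overlapping pair of groups with a log2 difference of 0.44 ± 0.31 (SE, adjusted p = 0.275). The 60 min median was 0.27 as deposited and 0.32 after scaling. Without g15293.t1 and g15294.t1 it was 0.60, beside 0.06 over all transcripts. There 6 of 6 had an unadjusted p under 0.05 by limma, as did 5856 of all transcripts, and 0 were called. With quantile normalization it was 0.09, with 0 at that p. At 4 and 6 h all 6 differences were positive, with medians of 0.25 and 0.38, and 0.44 and 0.51 after scaling. The 24 h median was -0.33, beside -0.17 over all transcripts, and -0.08 after scaling, where the 6 ran between -0.25 and 0.31. Without g15293.t1 and g15294.t1 the 24 h median was -0.40, beside -0.25 over all transcripts. There 4 of 6 had an unadjusted p under 0.05 by limma, as did 3550 of all transcripts. On scaled values with series as a term, the 4 h difference was 0.53 ± 0.10 (SE, adjusted p = 0.00531) for LHCA2 and 0.51 ± 0.10 (SE, adjusted p = 0.00709) for LHCA4. These 2 of 6 passed the p threshold upward, beside 6.46% of all transcripts, and 0 of 6 did at 6 h, beside 5.38%, where the scaled differences ran between 0.28 and 0.60.

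At 60 min of either osmolyte LHCA5 had the most negative and LHCA2 the least negative log2 fold change of the 6. The ratio of LHCA5 to LHCA2 was 0.463 and 0.557 in the first-series libraries of mannitol 60 min and 0.621 and 0.601 in those of NaCl 60 min, against 0.833, 0.850, 0.795 and 0.795 in those of control 0 h. In the second-series libraries it was 0.841 in mannitol 60 min and 0.834 in NaCl 60 min, against 1.67 in control 0 h. Since LHCA5 and LHCA2 were picked for their changes at 60 min in these same libraries, the ratio at that time is a description, and the second series sets 1 library against 1. The second-series library had the highest ratio in 14 of 14 groups, with 0.772 to 2.00 in that series and 0.463 to 0.902 in the first. Over both series, the log2 ratio of LHCA2 to LHCA5 overlapped control 0 h at 60 min of either osmolyte. A low ratio was not particular to 60 min. It was 0.528 and 0.593 in the first series and 0.772 in the second at 30 min of NaCl. At 15 min of NaCl it was 0.660, 0.652 and 0.884. Both first-series ratios lay below all those of control 0 h at every time of NaCl. They did so too at 15, 30 and 60 min and 24 h of mannitol. At 4 h of mannitol the ratio was 0.756 and 0.902 in the first series and 1.73 in the second.

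**Figure D4:**
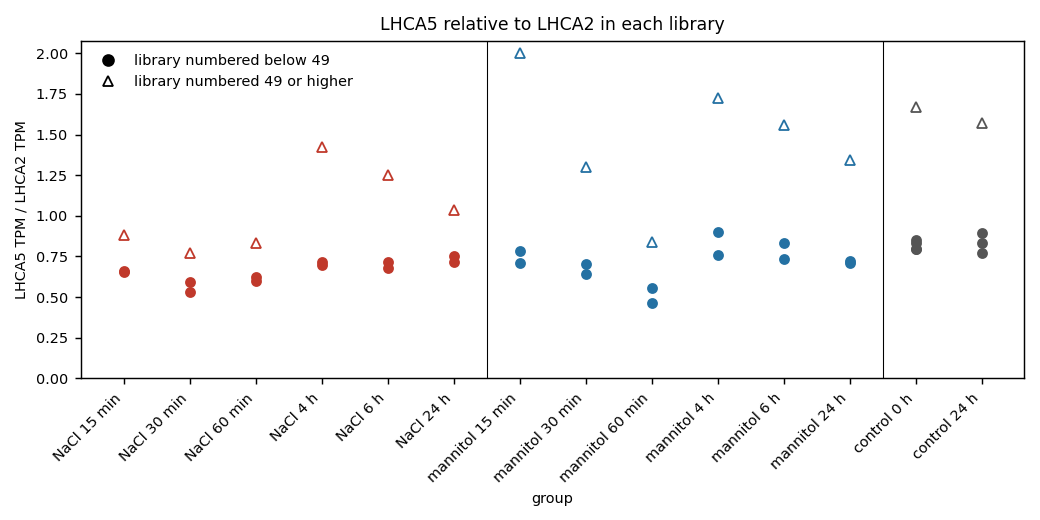
Ratio of LHCA5 TPM to LHCA2 TPM (y axis from 0) in each library of the 14 groups (x axis). Red is NaCl, blue is mannitol, grey is control, filled circles are libraries numbered below 49 and open triangles those numbered 49 or higher. The triangle is the highest point in all 14 groups.

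Across the 14 group means of scaled log2 values, the 6 LHCA profiles had pairwise correlations between 0.736 for LHCA2 with LHCA5 and 0.969 for LHCA4 with LHCA7, with a median of 0.921 over the 15 pairs. These points share libraries and scaling and are given as a description. Among 4322 other transcripts with a mean of 10 TPM or more, the profile most like the mean LHCA profile was that of Cre09.g412100 (r = 0.967), which encodes PSAF, the core subunit at which the electron donor docks to photosystem I. The next were Cre03.g165100 (r = 0.961), g6583 (r = 0.948), g11502 (r = 0.942) and Cre13.g603900 (r = 0.941). PSAF was at 1089, 1389.8 and 1707 TPM in mannitol 60 min, against 3468, 2092, 3215, 2060.1 and 3056 TPM in control 0 h. Its log2 fold change of -0.98 ± 0.25 (SE, adjusted p = 0.00238) stopped short of the fold limit, and against mannitol 30 min it fell with -1.05 ± 0.30 (SE, adjusted p = 0.00265). That call was lost without replicate 1 or 2 of mannitol 60 min or replicate 1 or 3 of mannitol 30 min, at log2 fold changes of -1.05 to -0.88, and after scaling, at -0.46. After scaling with series as a term, PSAF differed from control 0 h by -0.38 ± 0.10 (SE, adjusted p = 0.00415), beside a range of -1.15 to -0.38 over the 6 LHCA genes.

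LHCB4, a minor antenna protein of photosystem II, was called between the osmolytes at 60 min, unlike the LHCA genes, though the difference between the genes was not tested. It was at 1408, 1968 and 1975 TPM in NaCl 60 min and at 712, 1120.1 and 838 TPM in mannitol 60 min, against 4023, 2968, 4576, 2844 and 2645 TPM in control 0 h. Mannitol lay below NaCl without overlap, also after scaling, where 20.7% of all transcripts separated in that direction. LHCB4 fell in mannitol 60 min with a log2 fold change of -1.93 ± 0.25 (SE, adjusted p = 2.21e-06) and was higher in NaCl than in mannitol by 1.01 ± 0.29 (SE, adjusted p = 0.00984). Of all transcripts, 7.52% were called higher in NaCl at that time. This difference was 0.90 in the first series alone and between 0.86 and 1.19 with 1 library left out. The call was lost without any 1 of the 3 mannitol 60 min libraries or without NaCl 60 min replicate 2 or 3, with an adjusted p between 0.0173 and 0.0685. It was also lost in the first series alone, with a pseudocount of 0.1 (adjusted p = 0.0105), without the filter on low values (0.0686), without trend and robust in eBayes (0.0187) and after quantile normalization, at a log2 difference of 0.82. The scaled value with series as a term was 1.06 ± 0.16 (SE, adjusted p = 0.000432). Its profile over the groups correlated with the mean LHCA profile at r = 0.814, rank 36. PSAF and LHCB4 were the annotated genes of the photosystem list with a row in the table, and the other genes of that list were not analysed here.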

How the data were processed

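RNA-seq libraries of 45 samples were made with an mRNA kit (Kapa mRNA HyperPrep) and read as single-end reads. The study's methods name BWA as aligner and version 5.6 of the Chlamydomonas genome. The authors deposited TPM values, with 1 column for each library and no pooling. How TPM were computed and how reads shared between transcripts were assigned is not given in the sources used here. The table holds 19526 transcripts of 17737 genes, and 1 empty line was left out.

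Values were tested as log2(TPM + 1) by a linear model in limma (version 3.58.1, under R 4.3.3), moderated with the trend and robust options of eBayes, on the 13651 transcripts that reached 1 TPM in 3 or more libraries. Only the libraries of the groups compared entered a fit, and Benjamini-Hochberg adjustment ran over all transcripts of a comparison. Adjusted p-values in the text come from this limma test. A call needed a fold change above 2 and an adjusted p below 0.01. Fold changes on this scale understate those of low transcripts, which the LHCA genes are not. Tables and figures were made with Python 3.11.15, pandas 2.3.3 and matplotlib 3.10.9, and the fit was tested on simulated data.

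The members, the gene lists and the comparisons were chosen with earlier results of these data known. The text names the LHCA genes, the photosystem genes with an annotation, and the 5 transcripts most like the mean LHCA profile. Alternatives were a pseudocount of 0.1, no filter, a filter at a mean of 5 TPM, quantile normalization, median-ratio scaling, TPM without g15293.t1 and g15294.t1, other thresholds, a joint fit, eBayes without trend and robust, blocks for replicate number or library series, the first series alone, all 9 controls, and each library left out in turn. Scaling together with the series block was added after seeing the data. Same-numbered libraries deviated together (every pair's correlation across transcripts over 0.1) in 5 of the 25 comparisons, control 24 h against control 0 h, NaCl against mannitol at 4, 6 and 24 h, and NaCl 60 against 30 min. In these 5 the second-series library carries the same replicate number in both groups, so for it agreement by number cannot be told apart from agreement by series. The correlations ran between -0.449 and 0.699 over all comparisons. The methods speak of biological replicates, but the labels do not tie a replicate number to a flask, so p-values measure the spread between these libraries. Among the 52 pairs of libraries of a group, correlations across transcripts were 0.959 to 0.990 and no pair was identical. No sequence or coordinate is given.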

Additional observations from a re-analysis of the deposited data

Results flagged for a closer look

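In the untreated groups, replicate 5, the second-series library, was flagged as apart from the others for the outer-belt genes, though not for them alone was it the highest. LHCA4 was highest there in control 24 h, at 2834 TPM and at a median-ratio scaled 2868, with a gap to the next library of 0.871 and 0.972 of the group's range. In control 0 h the scaled LHCA4 value of replicate 5 was 1642, with a gap of 0.777 of the range. LHCA5 was highest in the same libraries, at a scaled 2147 in control 24 h and 1575 in control 0 h, with gaps of 0.864 and 0.714. These 5 came from 24 checks of a gene in a control group on either scale, and chance alone puts about 1 group in 20 past the limit used. Scaled LHCA7 in control 0 h was also highest in replicate 5, at 2645 against 2242 to 2360, and was not flagged. PSAF, which was not checked, was at a scaled 3998 there in control 24 h, against 2292 to 2555. LHCA2 was lowest in replicate 5, at a scaled 945 in control 0 h and 1368 in control 24 h. Without control 0 h replicate 5, the LHCA calls at 60 min of mannitol numbered 6, as with it, and those at 60 min of NaCl numbered 5, also as with it. NaCl 24 h then had 2 calls against control 0 h, and 4 h and 6 h of mannitol 1 each.

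LHCB4 differed between the osmolytes, with a log2 difference of 1.01 in NaCl 60 min over mannitol 60 min, tested directly by limma (adjusted p = 0.00984). As given above, this call stood close to both limits and was lost in most fits with 1 library left out and under several other alternatives.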

How the results depend on the processing

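For the 21 LHCA results called on deposited TPM, 0 values changed sign under an alternative. The 2210 values recomputed in all also hold counts of calls, which cannot change sign, and genes not called on deposited TPM. On deposited TPM, LHCA transcripts called lower numbered 1 at 30 min, 5 at 60 min and 1 at 24 h of NaCl against control 0 h, 6 at 60 min and 0 at 4 and 6 h of mannitol against control 0 h, 2 in NaCl 24 h against control 24 h, 0 in NaCl against mannitol at 30 min and 6 in mannitol 60 against 30 min. Quantile normalization and a log2 fold change beyond 2 each gave 0 in all of these. Median-ratio scaling gave 0 in all but mannitol 60 min against control 0 h, where it gave 1. With the series block added it gave 1 there, 1 in NaCl 24 h against control 24 h and 0 elsewhere, and with a replicate block it gave 0 in each comparison with control 0 h. TPM without g15293.t1 and g15294.t1 gave 0 for the NaCl comparisons with a control and 3 for mannitol 60 against 30 min, and also called 1 LHCA transcript higher in mannitol 4 h than at 60 min, where the deposited TPM called 0. Without the filter on low values, the counts were 0 at 30 min, 60 min and 24 h of NaCl against either control and in mannitol 60 against 30 min. The eBayes step without trend and robust gave 0 for NaCl 24 h against either control and 3 for mannitol 60 against 30 min. A pseudocount of 0.1 gave 1 for NaCl 24 h against control 24 h. At 4 h of mannitol the count was 2 with a mean TPM of 5 or more, 2 with the joint fit, 2 with the series block, 1 with all 9 controls and 3 at an adjusted p under 0.05. Libraries numbered below 49 gave 5 at 30 min and 4 at 24 h of NaCl against control 0 h, 1 at 4 h and 1 at 6 h of mannitol, 4 in NaCl 24 h against control 24 h and 4 in NaCl against mannitol at 30 min. The cause of these changes was not tested.

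The replicate block gave 6 for NaCl 60 min against control 0 h, 3 for NaCl 24 h against control 0 h, 0 for NaCl 24 h against control 24 h and 1 (LHCA2) for mannitol 6 h, comparisons in which the numbers do not pair the libraries. Where they do, the block changed no LHCA count. Leaving out 1 library at a time gave 0 to 4 calls at 30 min of NaCl, 1 to 5 at 60 min and 0 to 3 at 24 h against control 0 h, and 4 to 6 at 60 min, 0 to 1 at 4 h and 0 to 1 at 6 h of mannitol. It gave 0 to 4 in NaCl 24 h against control 24 h, 0 to 3 in NaCl against mannitol at 30 min and 0 to 6 in mannitol 60 against 30 min.

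Depth is unknown for TPM, so no counting error is attached to any level. Each treated group holds 3 libraries, 1 of them of the second series.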
